A study of Mus musculus with 18 samples.

Results

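The 10 genes described here are immediate-early response genes: Fos, Fosb, Jun, Junb, Egr1, Ier2, Btg2, Nr4a1, Atf3 and Dusp1. They were taken by symbol from the deposited tables of raw and normalised counts, 10 of the 43346 genes in the count table. All 10 passed the filter of a mean count above 0 that left 26717 genes for testing, and the lowest count of any of them was 98, for Dusp1 in a border library of the small intestine. The list was drawn from earlier results on the same libraries, in which differences between small intestine and large intestine were already known, so the contrasts of the sites were selected on measured values. They are given below as description, and where members called in them are counted, the count is no independent test. The contrasts of Lgr5 levels within a site are tested.

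RNA was sequenced from EPCAM-positive cells of untreated Lgr5_eGFP_Iris_creERT2 mice, by the labels on the C57BL/6 background and aged 8 to 20 weeks (the study's methods allow a mixed background and a wider range of ages), in which GFP and a Cre recombinase are driven by the Lgr5 locus. All 6 groups share this genotype, and there was no treatment and no wild-type group. Cells of the small intestine (SI) and of the large intestine (LI) were sorted by GFP level, and the study takes high, medium and low GFP as Lgr5+ cells of the crypt centre, of the border and from beyond row 3 (row >3). Each group has 3 replicates, 18 libraries in all, and the labels do not say which mouse a replicate came from, so the p-values measure the spread between these samples.

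Immediate-early genes are transcribed within minutes of a growth factor, stress or calcium signal and need no new protein for this, because the factors that switch them on (SRF with its ternary complex partners, and CREB) are already bound or waiting in the cell. Signals through the MAP kinases ERK, JNK and p38 reach these factors, and the products act as transcription factors (AP-1, EGR and NR4A proteins) or shut the response down again (Dusp1). The genes are also known to rise while tissue is dissociated into single cells. The crypts of both sites were dissociated with TrypLE before sorting.

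The total count per library ran from 8312093 to 31940965. The label of epithelial cells was checked on 7 epithelial markers, all with counts in each group and with a summed level of 3246 to 8337 CPM (counts scaled to 1000000 per library with edgeR's TMM factors), against 7.27 to 52.9 CPM for 10 immune markers and 2.32 to 16.8 CPM for 10 stromal and endothelial markers. There were 3 libraries that stood apart, and results are given with and without them. SI replicate 3 had 348 CPM of LI identity markers in the centre library, 1547 CPM in the border library and 2403 CPM in the row >3 library, where SI replicates 1 and 2 had 48.1 to 75.2 CPM and the LI libraries 485 to 1694 CPM. The genes with the most counts (Gm23935, Gm26917, Yam1, mt-Rnr1 and mt-Rnr2) held 40.5%, 38.8% and 41.1% of the counts there, against 28.9% to 33.3% in all other libraries. In these SI replicate 3 libraries, Paneth cell markers were at 1901, 556 and 215 CPM in centre, border and row >3, against 1689 to 7840 CPM in SI replicates 1 and 2. In bulk RNA, fewer cells of a type and less RNA per cell cannot be told apart.

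The promoters of 8 of the 10 genes were found in the RefSeq table of build GRCm38.p6, and Egr1 and Ier2 did not match. The 250 bases before the transcription start were searched on both strands for the CArG box bound by SRF, the cyclic AMP response element TGACGTCA (CRE), the AP-1 site TGANTCA, the EGR site GCGNGGGCG and TATAAA. The letters TGACG at the core of the CRE, which the full CRE also holds, was added after the sequences had been seen. Below are the promoters of Fosb and Junb, which passed the test between Lgr5 levels of the SI, of Fos and Btg2, which passed it in the fit with a replicate block, and of Dusp1 and Nr4a1, which hold a full CRE and the most core matches. Capitals mark all matches to these motifs, in 5′ to 3′ direction of the gene.
Fos: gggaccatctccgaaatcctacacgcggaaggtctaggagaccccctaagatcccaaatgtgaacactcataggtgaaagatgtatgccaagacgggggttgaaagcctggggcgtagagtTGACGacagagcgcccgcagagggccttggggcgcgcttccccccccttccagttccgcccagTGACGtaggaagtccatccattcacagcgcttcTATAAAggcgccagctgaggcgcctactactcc
Fosb: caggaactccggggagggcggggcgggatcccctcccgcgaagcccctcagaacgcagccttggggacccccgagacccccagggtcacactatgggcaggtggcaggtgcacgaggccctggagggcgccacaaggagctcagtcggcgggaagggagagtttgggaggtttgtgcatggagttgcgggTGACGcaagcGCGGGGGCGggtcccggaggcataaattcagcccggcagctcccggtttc
Junb: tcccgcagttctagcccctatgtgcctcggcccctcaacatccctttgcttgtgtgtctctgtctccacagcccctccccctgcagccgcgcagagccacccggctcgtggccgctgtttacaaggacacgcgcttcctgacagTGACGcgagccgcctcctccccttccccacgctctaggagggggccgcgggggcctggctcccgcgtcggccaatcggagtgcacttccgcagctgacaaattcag
Btg2: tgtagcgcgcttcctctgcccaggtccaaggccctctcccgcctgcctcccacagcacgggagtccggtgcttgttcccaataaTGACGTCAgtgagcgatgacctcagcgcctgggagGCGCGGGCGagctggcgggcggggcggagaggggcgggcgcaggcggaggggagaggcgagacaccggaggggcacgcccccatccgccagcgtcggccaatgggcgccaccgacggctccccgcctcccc
Dusp1: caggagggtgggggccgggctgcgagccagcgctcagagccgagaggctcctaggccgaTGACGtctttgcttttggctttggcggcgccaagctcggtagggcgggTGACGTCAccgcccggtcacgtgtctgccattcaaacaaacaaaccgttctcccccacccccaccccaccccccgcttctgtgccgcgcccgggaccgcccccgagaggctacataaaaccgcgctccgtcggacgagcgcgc
Nr4a1: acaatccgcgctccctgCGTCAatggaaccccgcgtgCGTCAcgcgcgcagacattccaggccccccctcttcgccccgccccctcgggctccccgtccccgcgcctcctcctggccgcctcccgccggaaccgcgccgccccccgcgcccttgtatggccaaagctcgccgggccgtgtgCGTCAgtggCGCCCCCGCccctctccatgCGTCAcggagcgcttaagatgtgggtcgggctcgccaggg

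These windows lie at chr12:85473640-85473889 on the plus strand (Fos), chr7:19310046-19310295 on the minus strand (Fosb), chr8:84978749-84978998 on the minus strand (Junb), chr1:134079156-134079405 on the minus strand (Btg2), chr17:26508473-26508722 on the minus strand (Dusp1) and chr15:101266596-101266845 on the plus strand (Nr4a1). The CRE core was present in 7 of the 8 promoters, all but that of Jun, and in 17.8% of the 32851 promoters searched. The full CRE was present in Btg2, from base -166 to -159, and in Dusp1, from base -143 to -136, and in 1.55% of all promoters. The EGR site was present in Btg2, Fosb and Nr4a1 and in 4.70% of all promoters. Fos alone held TATAAA, from base -33 to -28, a motif of 12.4% of all promoters. The CArG box (1.47% of all promoters) and TGANTCA (6.75%) were in none of the 8 windows, which says only that these letters are not there. Nr4a1 held 4 core matches, all on the other strand, and the base composition of the 8 windows ran from 58.4% G and C in Fos to 74.4% in Nr4a1.

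**Figure D1:**
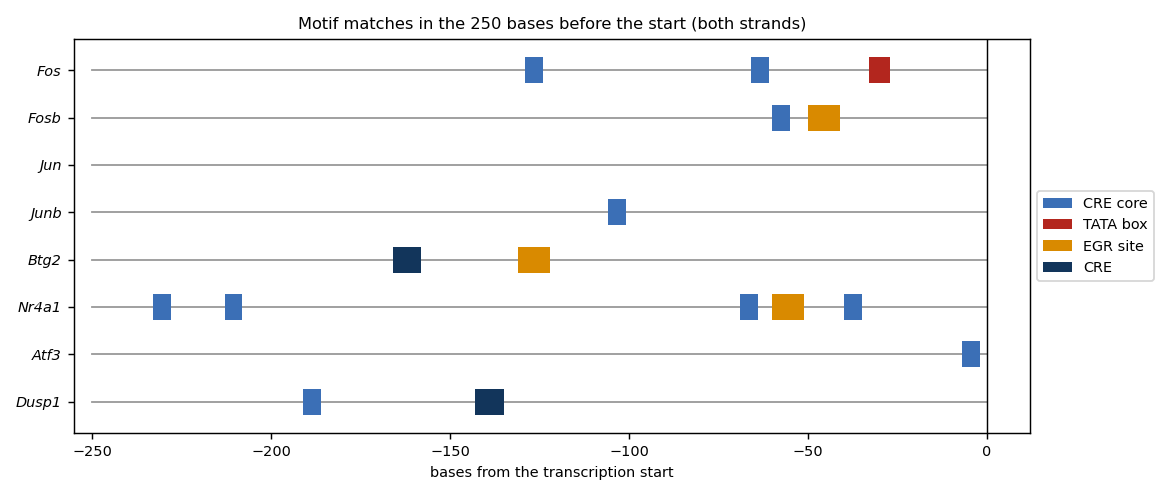
Motif matches in the 250 bases before the transcription start of 8 immediate-early genes, with the distance from the start in bases on the x axis and 1 line per gene. The coloured blocks are matches on either strand, and 7 of the 8 genes carry a CRE core, alone or as part of the full CRE.

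On a scale of CPM per kilobase of exon, which allows genes to be compared, Jun had the highest level in every group and Nr4a1 the lowest. The order of the 6 highest genes was the same in all 6 groups: Jun, Fos, Ier2, Egr1, Atf3, Btg2. In SI centre cells the mean levels were 143 ± 14.3 (SD, n = 3) for Jun, 57.2 ± 21.5 for Fos, 55.2 ± 6.07 for Ier2 and 35.7 ± 5.34 for Egr1. Fos and Ier2 thus did not differ beyond their spread there, while in SI row >3 cells Fos, at 104 ± 24.8, was at a level near that of Jun, at 111 ± 34.8. The other neighbours in the order, Junb, Fosb and Dusp1, were at 38.4, 38.3 and 38.1 CPM per kilobase in LI centre cells and did not differ beyond their spread. For Nr4a1 the level was 5.13 ± 0.948 in the SI centre and 18.3 ± 1.67 in the LI centre.

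The AP-1 subunits Fosb and Junb rose from centre to row >3 cells of the SI. Of 28 alternative settings, 16 kept the call of Fosb and 27 that of Junb, and neither passed without SI centre replicate 1. Fosb, a partner that dimerises with JUN proteins, was at 47.1, 60.1 and 74.4 CPM in SI centre replicates 1, 2 and 3 and at 119.4, 130.3 and 121.0 CPM in SI row >3 cells. The groups did not overlap, with a log2 fold change of 1.03 ± 0.32 (SE) and an adjusted p of 0.0431 (quasi-likelihood test of edgeR, adjusted by Benjamini-Hochberg over all genes tested). Junb, a JUN family member that often counters the growth-promoting action of JUN, was at 21.3, 26.6 and 32.7 CPM in SI centre cells and at 54.96, 46.9 and 63.2 CPM in SI row >3 cells, again without overlap (log2 fold change 1.03 ± 0.25, adjusted p = 0.00686).

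Fos, the prototype of the class, had 92.6, 120.3 and 190.7 CPM in SI centre and 216.2, 204.6 and 310.9 CPM in SI row >3 cells. Each row >3 library was above each centre library and above the centre library with the same number, and the log2 fold change was 0.86 ± 0.32 with an adjusted p of 0.101. Atf3, a stress-induced member of the same leucine zipper superfamily, had 43.9, 54.1 and 49.3 CPM in SI centre and 72.1, 84.2 and 56.4 CPM in SI row >3 cells, with a log2 fold change of 0.53 ± 0.29 and an adjusted p of 0.294. Jun is the main partner of FOS proteins. Its levels were 413.6, 447.3 and 503.6 CPM in SI centre cells and 278.4, 304.3 and 482.4 CPM in SI row >3 cells, which overlap through replicate 3 of row >3, and the log2 fold change was -0.36 ± 0.22 with an adjusted p of 0.391.

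Of the other transcription factors, Egr1, a zinc finger protein driven by SRF, had a log2 fold change of 0.23 ± 0.26 from SI centre to row >3 cells (adjusted p = 0.718). Nr4a1, an orphan nuclear receptor, had 15.2, 17.2 and 21.7 CPM in SI centre and 13.1, 15.8 and 13.3 CPM in SI row >3 cells. It was, with Jun, the second member with a lower mean in row >3 cells, with all 3 within-number ratios below 0 and a log2 fold change of -0.36 ± 0.26 (adjusted p = 0.493). Btg2, an antiproliferative protein that also promotes removal of mRNA tails, had 36.0, 42.3 and 72.8 CPM in SI centre and 73.6, 64.4 and 100.5 CPM in SI row >3 cells, with a log2 fold change of 0.66 ± 0.25 (adjusted p = 0.0963). Ier2, a small nuclear protein, was at 0.09 ± 0.17 (adjusted p = 0.847) and Dusp1, the phosphatase that inactivates MAP kinases, at 0.35 ± 0.45 (adjusted p = 0.768) on this log2 scale.

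In all, 2 of the 10 genes, Fosb and Junb, passed the test in SI row >3 against centre cells, where 13.2% of all genes tested did. That share includes many genes with few counts. With edgeR's filter for low counts (filterByExpr), which kept 15998 genes, it was 25.8%. The groups were apart with row >3 higher for 4 of the 10 (Fos, Fosb, Junb and Atf3), against 12.8% of all genes. The median log2 fold change was 0.44 over the 10 genes and 0 over all genes. Replicates of the same number deviated together within a site, and in a fit with a replicate block for each site 6 of 10 passed, where 22.8% of all genes did: Fos, Fosb, Junb, Btg2 and Atf3 higher, with log2 fold changes of 0.90, 1.06, 1.05, 0.70 and 0.55, and Jun lower at -0.40 (adjusted p = 0.0243). Without the SI libraries of replicate 3, the number was 4 of 10, where 17.1% of all genes tested passed. These 4 were Fos (0.99), Junb (1.10) and Btg2 (0.83) higher and Jun (-0.56) lower, while Fosb was at 1.23 with an adjusted p of 0.0725. With both changes, the number was 6, where 23.7% of all genes passed, and by DESeq2 it was 3, Fosb, Junb and Fos, where 15.9% passed. Without SI centre replicate 1 the number was 0, where 8.02% of all genes passed, and Junb and Fosb have 27 and 16 of 28 alternative settings that pass.

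**Figure D2:**
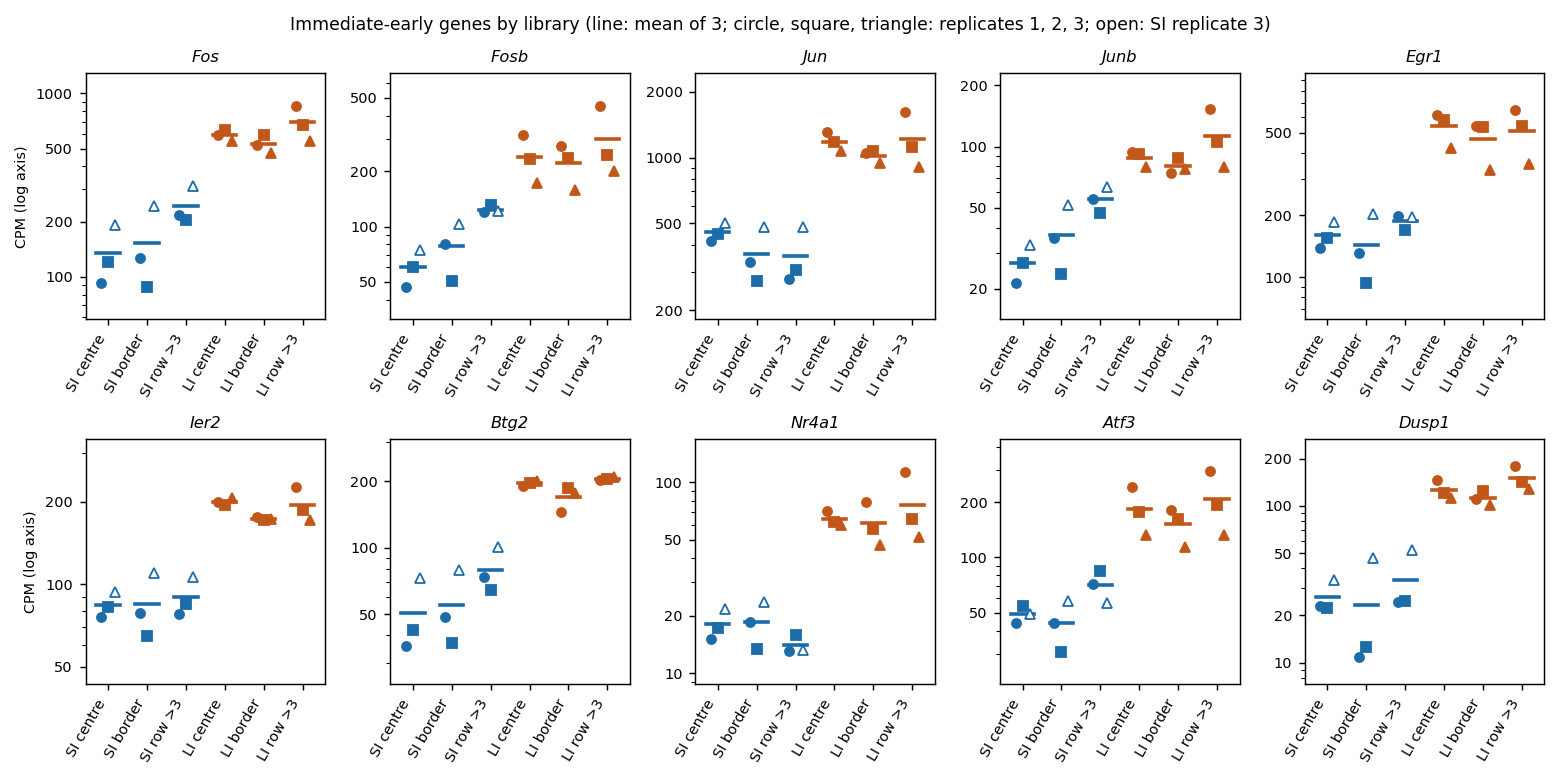
CPM of each immediate-early gene in each of the 18 libraries, 1 panel per gene with a log y axis, in 6 groups of 3 (blue, SI; orange, LI; lines, group means; open triangles, SI replicate 3). Fosb and Junb in SI row >3 cells lie above SI centre cells in every library, and all LI libraries lie above all SI libraries of the same level.

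Goblet, absorptive and Lgr5 stem cell markers of the SI moved along the same axis. The summed level of 6 goblet cell markers was 671 to 9993 CPM in SI centre and 30977 to 50622 CPM in SI row >3 cells, and that of 8 absorptive markers 165 to 325 CPM and 658 to 1497 CPM. The 6 Lgr5 stem cell markers went from 2102 to 3106 CPM in centre to 510 to 817 CPM in row >3 cells. Sums of Paneth, enteroendocrine and tuft markers overlapped between these SI positions, as with 1689 to 7840 and 215 to 4592 CPM for Paneth markers. In the LI, goblet markers were at 6687 to 10627 CPM in centre and 14845 to 23371 CPM in row >3 cells. The stem cell markers there were at 2172 to 2553 and 751 to 1457 CPM, and absorptive markers overlapped. The part of these cell types in the changes of the immediate-early genes was not tested.

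Between the border and the other positions of the SI, the 10 genes did not pass the test. None was called from centre to border, where 0.0112% of all genes were, and the log2 fold changes ran from -0.33 to 0.46. On all 18 libraries, no member had an unadjusted p under 0.05 there by DESeq2 or by edgeR without a block. With the replicate block none passed, where 2.32% of all genes did. Jun (-0.37) and Junb (0.42) had an unadjusted p under 0.05 in the fit with the block, where 15.2% of all genes did. The spread within SI border cells was wide: Dusp1 had 10.9, 12.6 and 46.5 CPM in replicates 1, 2 and 3, and Fos 126.9, 88.1 and 242.1 CPM. Replicate 3 was the highest of the border libraries for all 10 genes. Without the SI libraries of replicate 3, Dusp1 was lower in border than in centre cells (log2 fold change -0.94 ± 0.22, adjusted p = 0.0322), the only member of 10 to pass, where 0.963% of all genes did. Jun (-0.51, adjusted p = 0.409) also had an unadjusted p under 0.05 in that fit, where 1850 of 26181 genes did.

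From border to row >3 cells of the SI, 0 of 10 passed, where 1.61% of all genes did, with 3 at an unadjusted p under 0.05 by edgeR, where 13.6% of all genes were, and 0 passing by DESeq2, where 4.88% did. Fosb alone had groups apart, with 80.1, 50.8 and 103.2 CPM in border cells. With the replicate block, 6 of 10 passed (Fos, Fosb, Junb, Egr1, Btg2 and Atf3, all higher in row >3 cells), where 9.78% of all genes did. Without the SI libraries of replicate 3, 4 of 10 passed, Fos, Junb, Btg2 and Dusp1, where 7.22% of all genes did, and with both changes 7 passed, where 12.5% did.

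In the LI, none of the 10 genes passed the test between any of the 3 positions. The share of all genes called was 0% from centre to border, 0.0187% from centre to row >3 and 0% from border to row >3. On all 18 libraries, no member had an unadjusted p under 0.05 in any of these contrasts by edgeR without a block. DESeq2 also called 0 members, where it called 0%, 0.348% and 0% of all genes in the same order of contrasts. With the replicate block none passed either, where 0%, 2.59% and 0.0674% of all genes did, again in that order. In the fit with the block, 6 members (Fos, Fosb, Junb, Btg2, Atf3 and Dusp1) had an unadjusted p under 0.05 from border to row >3, against 9.05% of all genes. In that contrast 8 of 10 members were higher in row >3 cells in all 3 numbers. Without the SI libraries of replicate 3 and without the block, none passed from border to row >3, where 0.0802% of all genes did. Fos, Junb and Dusp1 had an unadjusted p under 0.05 in that fit, against 2033 of 26181 genes. From centre to row >3 cells the log2 fold changes ran from -0.07 for Egr1 to 0.35 for Junb, with 8 of 10 above 0 and a median of 0.20. Junb had 93.8, 91.6 and 79.6 CPM in LI centre and 153.0, 105.9 and 79.8 CPM in LI row >3 cells, and the interval of 2 standard errors around its log2 fold change was -0.13 to 0.84. Groups were apart with row >3 higher for 1 of 10, Btg2, against 7.79% of all genes, at 188.9 to 200.5 CPM in centre and 202.4 to 207.6 CPM in row >3 cells. From centre to border all 10 fold changes were below 0, between -0.28 and -0.07, and from border to row >3 all 10 were above 0, between 0.13 and 0.50.

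The spread within LI groups followed the replicate number. Replicate 3 was the lowest library for 8, 7 and 9 of the 10 genes in centre, border and row >3 cells, and replicate 1 the highest for 7, 5 and 9, with replicate 2 the highest for the other 5 in border cells. In LI row >3 cells this spread was 452.8, 245.5 and 200.9 CPM for Fosb and 1621.0, 1115.7 and 906.2 CPM for Jun. In the SI, replicate 3 was the highest library for 9, 10 and 6 of the 10 genes. Its libraries also held 38.8% to 41.1% of their counts in Gm23935, Gm26917, Yam1, mt-Rnr1 and mt-Rnr2. The part of this in the order of the libraries was not tested.

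Whether the change with Lgr5 level differed between the sites was tested itself. None of the 10 genes passed for border over centre (0% of all genes called) or for row >3 over centre (0% of all genes called). On all 18 libraries, no member had an unadjusted p under 0.05 in either by DESeq2 or by edgeR without a block. With the replicate block none passed for row >3 over centre, where 2.32% of all genes did, and 5 members (Fos, Fosb, Jun, Junb and Btg2) had an unadjusted p under 0.05, against 13.4% of all genes. For border over centre, none passed, where 0% of all genes did, and 1 member, Junb, had such a p, against 5.26%. For row >3 over centre, the differences of log2 fold changes (SI minus LI) were 0.70 ± 0.45 for Fosb, 0.68 ± 0.34 for Junb, 0.62 ± 0.45 for Fos and -0.61 ± 0.37 for Nr4a1. The intervals of 2 standard errors were -0.01 to 1.37 for Junb and -0.28 to 1.52 for Fos. Without the SI libraries of replicate 3 and without a block, none passed, where 0.16% (border over centre) and 3.27% (row >3 over centre) of all genes did. In that fit Fos, Jun, Junb and Btg2 had an unadjusted p under 0.05 for row >3 over centre, against 3125 of 26181 genes. Dusp1 had such a p for border over centre, against 947 of 26181 genes. Without the SI libraries of replicate 3 and with the replicate block, 3 of 10 passed, where 7.63% of all genes did: Fosb (0.95), Fos (0.78) and Btg2 (0.76), with adjusted p-values of 0.0171, 0.0347 and 0.00797.

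**Figure D3:**
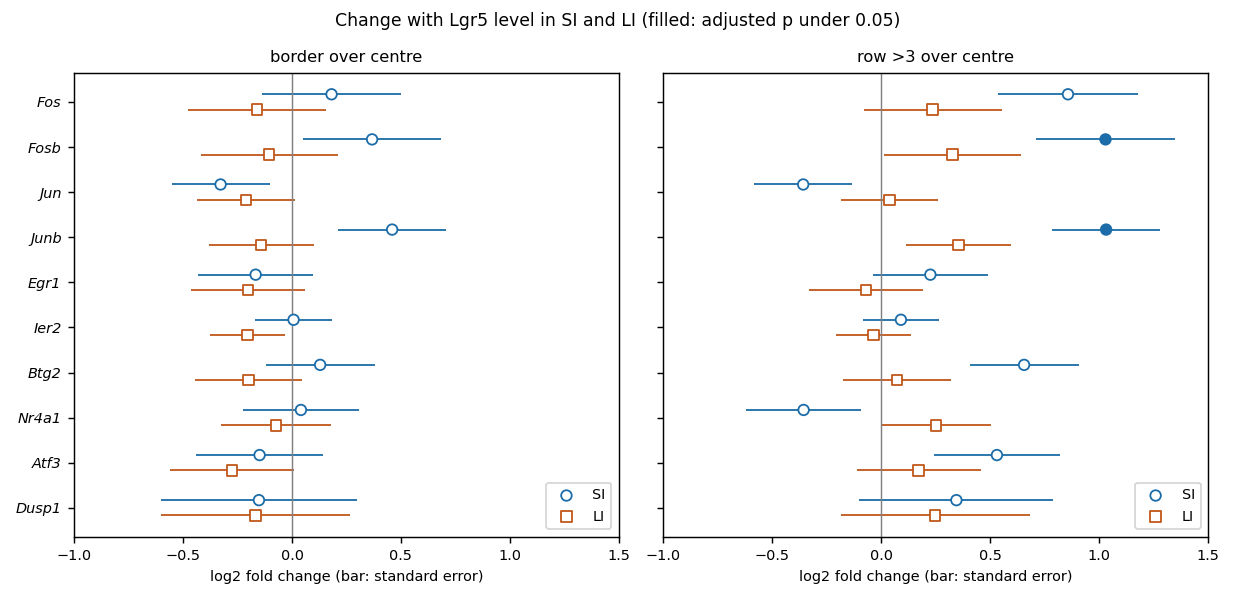
Log2 fold change of each immediate-early gene from centre to border (left) and from centre to row >3 (right), in SI (blue circles) and LI (orange squares), with the standard error as bars and filled symbols for an adjusted p under 0.05. Only Fosb and Junb in SI row >3 cells, both at 1.03, are filled.

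All 10 genes were lower in SI than in LI cells at each of the 3 positions, and for each gene every SI library was below every LI library of the same position. These contrasts are the ones the list was drawn from. In centre cells the levels in the LI were 2.37-fold (Ier2) to 4.79-fold (Dusp1) those in the SI, in border cells 2.05-fold (Ier2) to 4.73-fold (Dusp1) and in row >3 cells 2.05-fold (Junb) to 5.43-fold (Nr4a1). All 10 were called at each position, where 1.99%, 1.76% and 4.09% of all genes were called, and all 10 had SI libraries below LI libraries, where 9.84%, 8.58% and 8.69% of all genes did. Nothing is read from these counts, since the list was drawn from these contrasts. The 10 genes summed to 688 to 1502 CPM in the SI and 2591 to 4752 CPM in the LI libraries.

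On the fold scale, the largest distances in centre cells were those of Dusp1, with 22.8, 22.4 and 33.9 CPM in SI and 146.1, 120.4 and 112.2 CPM in LI cells, and of Fos, with 552.6 to 627.7 CPM in LI cells. Nr4a1 had 13.1, 15.8 and 13.3 CPM in SI row >3 and 113.1, 64.2 and 51.7 CPM in LI row >3 cells. Jun, the member with the most counts, had 1066 to 1309 CPM in LI centre cells. Without the SI libraries of replicate 3, all 10 log2 fold changes stayed below 0, from -2.43 to -1.29 in centre, -3.20 to -1.23 in border and -2.55 to -1.08 in row >3 cells. Fosb in row >3 cells was then above the threshold (-1.20, adjusted p = 0.0721). Immune markers were at 7.27 to 29.9 CPM in the SI centre and 27.3 to 46.7 CPM in the LI centre, and Paneth markers at 1689 to 7840 CPM in the SI centre and at most 4.41 CPM in the LI centre. The part of these cells in the site contrasts was not tested.

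The SI replicate 3 libraries carried LI genes, and the position of each gene in them was set on a scale from 0%, the mean of SI replicates 1 and 2, to 100%, the mean of the LI libraries. Genes with at least 20 CPM in each LI library and a mean at least 20 times their level in SI replicates 1 and 2 had a median position of 64.1% in centre (49 genes), 86.3% in border (39 genes) and 78.6% in row >3 cells (36 genes). The genes whose LI mean was 2 to 5 times higher, with all LI libraries above both SI libraries, had medians of 56.7%, 80.3% and 72.6%. The 10 immediate-early genes had medians of 11.3%, 26.9% and 20.2%, and no member was above 21.6%, 43.7% and 23.1%. In the row >3 library, Fosb, Nr4a1 and Atf3 were at -2.19%, -1.86% and -16.9%, below the mean of SI replicates 1 and 2. The 10 genes were drawn from site differences in which SI replicate 3 took part, while the other genes were chosen on SI replicates 1 and 2 alone, so both sets are not alike in how they were chosen and these values are a description of 3 libraries with no test.

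**Figure D4:**
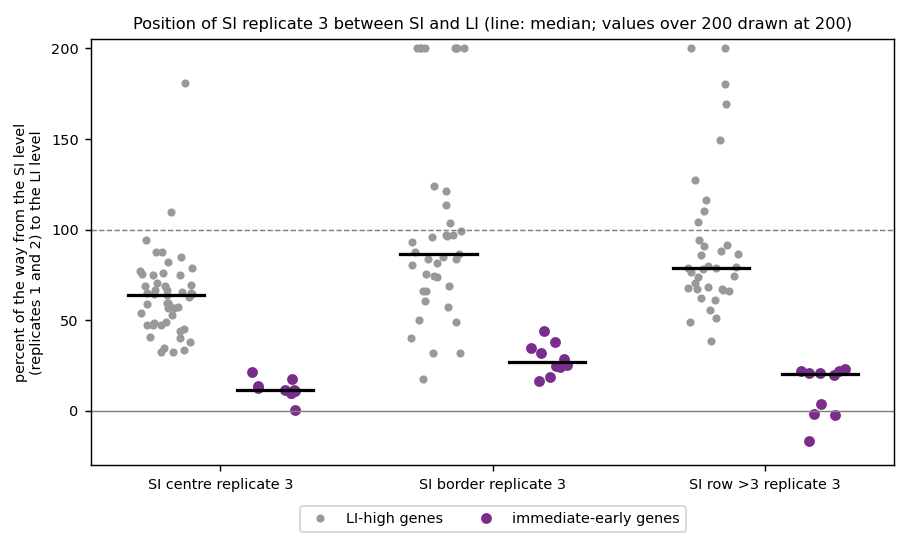
Position of SI replicate 3 between the mean of SI replicates 1 and 2 (0%) and the mean of the LI libraries (100%), at 3 positions, for LI-high genes (grey) and the 10 immediate-early genes (purple), with lines at the medians. The immediate-early genes have medians of 11.3%, 26.9% and 20.2%, and LI-high genes 64.1%, 86.3% and 78.6%.

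Genes around the pathway were read from 8 lists with 117 genes tested. From SI centre to row >3 cells 21 rose and 9 fell, against 13.2% of all genes that passed, and from LI centre to row >3 cells 0 passed (with the replicate block 5 higher and 4 lower, where 2.59% of all genes passed). The 13.2% is over all 26717 genes, many with few counts. In the fit on the 15998 genes that filterByExpr kept, 25.8% passed from SI centre to row >3 cells. In the SI the replicate block gave 35 higher and 17 lower, where 22.8% of all genes passed. Of 10 AP-1 partners, 3 rose in the SI and none fell: Jund, a JUN protein that is present without a stimulus, from 154 ± 21.7 to 289 ± 27.9 CPM (log2 fold change 0.91 ± 0.16), Mafk from 23.6 ± 1.51 to 49.4 ± 3.83 CPM (1.07 ± 0.20) and Batf2 from 1.41 ± 0.30 to 10.4 ± 2.27 CPM (2.90 ± 0.51). Jund had 193 ± 12.03 CPM in LI centre and 288 ± 70.7 CPM in LI row >3 cells, which did not pass (adjusted p = 0.390). Of 7 EGR and NR4A relatives, Nab1, a corepressor of EGR proteins, rose (0.86 ± 0.21) and 6 did not pass, Egr2 among them at 13.1 ± 6.16 and 8.62 ± 2.31 CPM.

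Of 16 other early transcription factors, 5 rose and 2 fell in the SI, where 13.2% of all genes passed. Klf2 (2.79 ± 0.45), Klf4 (2.23 ± 0.46), a factor of goblet cell differentiation, and Klf10 (1.05 ± 0.24) were among those that rose, while Myc (-1.49 ± 0.21), a Wnt target, and Hes1 (-1.38 ± 0.23), a Notch target, fell. Klf4 went from 53.4 ± 30.5 to 251 ± 61.4 CPM in the SI, and had 92.3 ± 20.4 CPM in LI centre and 228 ± 55.1 CPM in LI row >3 cells (adjusted p = 0.550 in the LI). Of 23 early genes of mRNA decay, growth arrest and survival, 4 rose and 3 fell, against the same 13.2%. Tob1, a relative of Btg2, rose from 31.9 ± 15.7 to 94.2 ± 17.4 CPM (1.56 ± 0.34), Gadd45b, a stress sensor of growth arrest, rose (1.51 ± 0.36), and Zfp36l2, which destabilises mRNA, fell (-0.99 ± 0.15).

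Of 25 genes upstream of the immediate-early response, 5 rose and 1 fell in the SI, where 13.2% of all genes passed. Mapk3, which encodes ERK1, rose from 72.4 ± 20.6 to 156 ± 38.7 CPM (1.10 ± 0.24), Hras (0.83 ± 0.19) and the ERK-activated kinase Rps6ka1 (0.57 ± 0.13) rose, and Mkl2, an SRF cofactor, fell (-0.95 ± 0.14). Of 15 MAPK feedback inhibitors, 2 fell and none rose, the phosphatases Dusp16 (-0.97 ± 0.20) and Dusp4 (-1.29 ± 0.41), a share near the 13.2% of all genes, and with the replicate block 2 rose and 2 fell, a share near the 22.8% of all genes in that fit. Of 11 early NF-kB targets, Birc3 (1.03 ± 0.18) and Tnfaip3 (1.03 ± 0.29) rose, and of 10 heat shock genes the co-chaperone Bag3 (0.87 ± 0.20) rose and Hspe1 (-0.64 ± 0.21) fell, with 1 higher and 5 lower in the fit with the replicate block, where 22.8% of all genes passed. From SI border to row >3 cells, Klf2 (1.96 ± 0.46) rose, Myc (-1.33 ± 0.21) and Zfp36l2 (-0.71 ± 0.15) fell and the others of the 117 did not pass, a share near the 1.61% of all genes, while with the replicate block 19 of the 117 were higher and 8 lower, where 9.78% of all genes passed. Between the sites, 19, 14 and 14 of the 117 were called lower in SI centre, border and row >3 cells and 1, 0 and 3 higher, where 0.805%, 0.606% and 1.32% of all genes were called lower. These site contrasts were partly known before the lists were drawn up, and nothing is read from their counts.

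**Figure D5:**
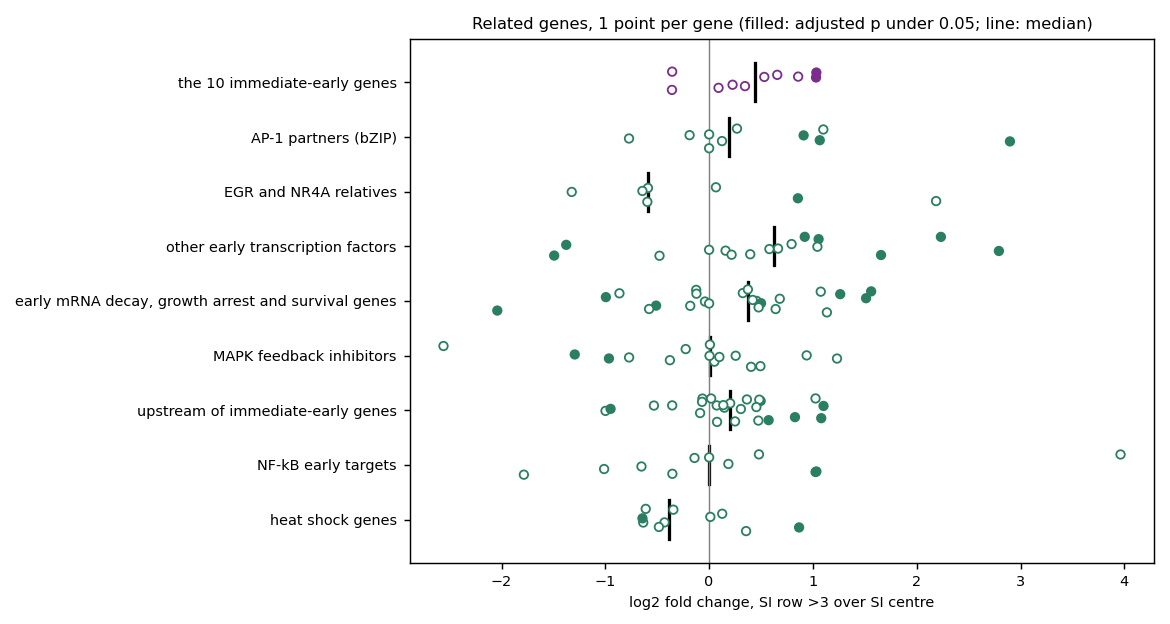
Log2 fold change from SI centre to row >3 cells of the 10 immediate-early genes (purple) and of the 8 lists of related genes (green), 1 point per gene, filled for an adjusted p under 0.05, with black lines at the medians. Of the 117 related genes 21 are filled above 0 and 9 below 0, and the immediate-early genes have a median of 0.44.

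After each gene was centred on its site mean, the genes most alike in pattern to the mean of the 10, among 8680 genes with a mean of at least 10 CPM, included Stk25 (Pearson r = 0.842), Aak1, Osbpl11, Ppip5k1, Tet2, Vps13d and Zfp36 (0.831), over 18 libraries, in which all genes share the depth and the replicate number of a library. Zfp36, itself an early gene whose product destabilises mRNA, had 52.2 CPM in SI centre, 71.8 CPM in SI row >3, 122 CPM in LI centre and 115 CPM in LI row >3 cells. Between members, r ran from 0.07 for Btg2 and Nr4a1 to 0.94 for Fos and Junb.

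The genes lie on GRCm38 (mm10, GENCODE release M21) at chr12:85473890-85477273 (Fos), chr7:19302696-19310051 (Fosb), chr4:95049034-95052222 (Jun), chr8:84974484-84978718 (Junb), chr18:34859823-34864984 (Egr1), chr8:84661331-84662852 (Ier2), chr1:134075170-134079120 (Btg2), chr15:101254269-101274795 (Nr4a1), chr1:191170296-191218039 (Atf3) and chr17:26505590-26562128 (Dusp1). Whether counting used the strand is not given in the sources used here. There are 3 members that share exon sequence with a gene on the opposite strand, so their counts are uncertain to that extent: Junb with Prdx2 (up to 76.2 CPM in LI centre cells), Dusp1 with Ergic1 (up to 128 CPM in SI row >3 cells) and Jun with Junos (up to 6.75 CPM in LI centre cells).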

How the data were processed

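Lgr5+ cells of 2 sites and 3 GFP levels were sequenced with a stranded SMART-Seq kit, 3 libraries per group. The authors demultiplexed with bcl2fastq, trimmed with Skewer, aligned to mm10 and counted with STAR, and deposited raw counts per gene, with no normalization. Their second deposited table holds counts divided by 1 size factor per library (unit: signal), constant to a relative deviation of 5.33e-15, with 24814 genes; it served as an alternative for mean levels. The annotation release is not given in the sources used here. Depth was 8312093 to 31940965 counts per library, and the lowest count of a member in any library was 98.

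Differences were tested with edgeR 4.0.16 in R 4.3.3 on raw counts: TMM factors, genes with a mean count above 0, glmQLFit with the robust option and without the legacy setting, 1 fit of 6 groups, Benjamini-Hochberg adjustment over all genes and a threshold of 0.05. The study used DESeq2; version 1.42.0 of it served as an alternative. Other alternatives were RLE factors, library size only, filterByExpr, no filter, a replicate block within site or over all libraries, each library left out, and the SI libraries of replicate 3 left out. The legacy quasi-likelihood fit was added after the data were seen. Scripts were tested on simulated data.

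Same-numbered libraries deviated together within a site: correlations were 0.342 to 0.794 for 9 pairs in the SI and 0.481 to 0.759 for 9 in the LI, against -0.141 to 0.466 for 27 across sites. The numbers were therefore taken to pair libraries within a site, which remains an assumption. Libraries of unlike number within a site were not compared, and SI replicate 3, which stood apart at all 3 levels, enters the SI correlations. CPM use TMM-scaled library sizes. Likeness used log2(CPM + 1). The members and lists were chosen with earlier results of these data known. Text names all 10 members, up to 4 genes per list and contrast past the threshold with the smallest p, or otherwise the 2 of highest mean CPM, and the 8 most alike genes; a gene named for 1 contrast may be given with its values in another. Of the 8, 1 is not reported here. Of the identifiers, 42462 were in GENCODE release 21 of the mouse. Figures were drawn with matplotlib 3.10.9 in Python 3.11.15.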

Additional observations from a re-analysis of the deposited data

How the results depend on the processing

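The counts of members that passed in the LI level contrasts and in border over centre between the sites were 0 under all settings run. The shares of all genes were highest without the SI libraries of replicate 3 and with the replicate block. There they were 0.0153% for LI border against centre, 6.78% for LI row >3 against centre and 1.53% for LI row >3 against border. For border over centre between the sites the share was 0.416%. For SI row >3 against centre, where 2 passed, RLE factors, library size only, no filter and the legacy fit gave 1 each, where 13.2%, 12.5%, 6.8% and 11.1% of all genes passed, and DESeq2 gave 3, where 15.9% did. In fits with the replicate block within site this count was 6, or 6 again without the SI libraries of replicate 3, and it was 4 without those libraries and without the block. For SI row >3 against border, where 0 passed, the replicate block gave 6, leaving out the SI libraries of replicate 3 gave 4, and both gave 7. For SI border against centre, 0 became 1 without the SI libraries of replicate 3, with the block or without it, and for row >3 over centre between the sites 0 became 3 with both. The replicate block within site changed no other of these counts of members by over 1.5 times, and gives no value for the site contrasts, since its blocks lie within a site. With 1 library left out at a time, the count for SI row >3 against centre was lowest at 0 when SI centre replicate 1 was dropped and highest at 4 when replicate 3 of SI centre or of SI border was dropped, and it ran from 0 to 4 (SI border replicate 3 dropped) for SI row >3 against border, where the shares of all genes were 7.44% to 15.4% and 0.0113% to 5.71%. As a description and no sign of stability, since the list was drawn from these contrasts, it ran from 6 (without SI border replicate 1 or LI border replicate 2) to 10 for the sites in border cells, from 6 (without SI row >3 replicate 1 or 2) to 10 in row >3 cells and from 9 to 10 in centre cells, with 0.504% to 3.24%, 1.43% to 6.34% and 0.679% to 4.66% of all genes called. Fosb was above the threshold of adjusted p without the SI libraries of replicate 3 in SI row >3 against centre, and in SI against LI row >3 cells. The log2 fold change of Ier2 from SI centre to row >3 was -0.11 with library size only and ran from -0.035 to 0.18 with 1 library left out, and that of Dusp1 from -0.089 to 0.55. The cause of these shifts was not tested. No scaling moved the median of all genes by over 0.1 on the log2 scale. The number of replicates, 3 per group, limits all of these results.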
